A study of Mus musculus with 8 samples.

Results

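The comparison described here is between the ascending and the descending aorta of newborn mice that lack Lox, the gene for lysyl oxidase. It rests on 4 of the 8 arrays of the study, 2 of knockout (KO) ascending aorta and 2 of KO descending aorta, chosen by their labels for genotype and tissue. The other 4 arrays measured the same 2 segments in wild-type (WT) mice, 2 arrays each. All mice were p0 pups on an albino C57BL/6J background, and each array held total RNA pooled from 8 pups of a genotype, so n = 2 pools per group throughout. The ascending piece began at the aortic valve and ended at the ductus arteriosus, and the descending piece lay between the level of the vena cava and the diaphragm. The pools are labelled as biological replicates, nothing ties their numbers to a litter, and p-values measure the spread between pools, not between pups. The 2 pools per group limit the precision.

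Lysyl oxidase oxidises lysines in elastin and collagen, the first step of the crosslinks that hold the fibres of the arterial wall together. The wall of the ascending aorta is built largely by cells of the neural crest and the second heart field, and that of the descending aorta by cells of the paraxial mesoderm. Positions along the trunk are marked by the Hox transcription factors, whose order in each chromosomal cluster follows the order in which they are used from head to tail. The descending aorta also runs beside the sympathetic chain and is embedded in perivascular fat, so a dissected piece can hold neurons, fat and other cells beside smooth muscle.

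Values are log2 RMA signals, and differences are ascending minus descending, so a difference of 1 is a 2-fold higher signal in the ascending aorta. A gene was called at a Benjamini-Hochberg adjusted p under 0.05 in limma. Smooth muscle markers were high on all 4 KO arrays, with Acta2 between 12.42 and 12.58, Myh11 between 10.67 and 10.92, and Tagln between 11.51 and 11.63 (Myh11 and Tagln were named outside the rule, as a check of the tissue). Lox signal was 8.87 and 8.74 in the KO ascending pools and 8.56 and 8.51 in the KO descending pools, below the 11.24 to 11.60 of the WT arrays. The sources used here do not say where its probes lie relative to the deleted part. The KO segments differed by 0.27 in Lox (SE 0.11, adjusted p = 0.372), and in Loxl1, Loxl3 and Loxl4, which encode related crosslinking enzymes, by -0.11, -0.30 and -0.07 (adjusted p = 0.83, 0.238 and 0.877).

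Of 16638 genes tested, 247 (1.48%) were called between the KO segments, 91 (0.547%) higher and 156 (0.938%) lower in the ascending aorta. Of these, 105 differed by at least 2-fold. The median difference over all genes was close to 0, with 49.5% of genes above 0, and the arrays of the segments did not overlap for 41% of all genes tested. Among the gene groups examined, Hox genes and genes of sympathetic neurons, endothelium and fat had 4 to 12 members called lower and none called higher, and platelet genes had 5 called higher and none called lower. In such bulk tissue, fewer cells of a type and less RNA per cell cannot be told apart.

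With 2 pools a side, single arrays carried weight. The count of called genes was 61 without KO ascending replicate 1, 108 without KO ascending replicate 2, 148 without KO descending replicate 1 and 54 without KO descending replicate 2. Of 98 genes chosen by the naming rule that were called, 9 stayed called in all 20 alternatives: Hoxb6, Hoxc6, Hoxa6, Tcf21, Ptn, Ptgs2, C1qtnf3, Chrdl1 and Hhip. Leaving out 1 KO array ended the call of 44 to 72 of the 98, and the difference of none of them moved by over 1.5 times.

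Of 32 Hox genes tested, 12 fell in the ascending aorta and none rose. Hoxb6 signal was 4.38 and 4.11 in the KO ascending pools and 7.69 and 7.73 in the descending pools. It was 11-fold lower in the ascending aorta, a difference of -3.46 (SE 0.20, adjusted p = 0.00025), the largest fall among all named genes. The ascending values lay near 4.11, the level under which genes were left out as dim, so the size of this difference is limited by the floor of the array. Hoxc6 signal was 4.50 and 4.38 against 7.35 and 7.66, a difference of -3.06 (SE 0.15, adjusted p = 9.01e-05). Hoxa6, at 5.20 and 5.06 against 7.15 and 7.03, differed by -1.96 (SE 0.13, adjusted p = 0.0005). All 3 paralogs of group 6 on the arrays were thus low in both ascending pools and high in both descending pools.

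The Hox genes were also set out by paralog group. Of 39 Hox genes looked for, 32 were tested, 4 were dim (Hoxa13, Hoxc5, Hoxc11 and Hoxd13) and 3 were not analysed here. None of the 7 tested genes of paralog groups 1 to 3 was called, and their median difference was 0.08. Of the 17 tested in groups 4 to 9, 12 fell and none rose, with a median of -1.04. The bounds of this band are the lowest and highest groups with a call, so the split between bands is no test. None of the 8 tested in groups 10 to 13 was called, with a median of 0.17. Hoxd10 averaged 5.42 in the KO ascending and 5.50 in the KO descending pools. The KO segment means of the others lay between 4.01 and 4.79, near the level under which genes were left out as dim. For genes this dim, a lack of calls does not show that the segments were alike. The calls ran from group 4, with Hoxc4, to group 9, where only Hoxa9 was called, and lay in all 4 clusters.

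Within groups 4 to 9 the size varied widely. Behind the genes of group 6 came Hoxb8 at -1.90, Hoxc8 at -1.69, Hoxa5 at -1.48, Hoxa9 at -1.42 and Hoxc4 at -1.19. Hoxb5, Hoxa7, Hoxd8 and Hoxb7 differed by -1.04, -0.92, -0.86 and -0.80 (adjusted p = 0.00356, 0.0352, 0.0147 and 0.0406). The 5 tested genes of these groups that did not pass were Hoxb9 at -0.43 (adjusted p = 0.143), Hoxb4 at -0.32, Hoxc9 at -0.03, Hoxd9 at 0.00 and Hoxa4 at 0.07. Neighbours in a cluster thus differed, as Hoxa4 and Hoxa5 show. In the most anterior groups, Hoxa2 had the highest value, 0.42 (adjusted p = 0.125), and Hoxb3 the lowest, -0.48 (adjusted p = 0.313).

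The list of Hox genes also held their TALE cofactors, homeodomain proteins that bind DNA together with Hox proteins. Meis1 differed by 0.17 and Meis2 by 0.41, and neither was called. The count of Hox genes that fell was 9 without KO ascending replicate 1, 7 without KO ascending replicate 2, 8 without KO descending replicate 1 and 6 without KO descending replicate 2. The same 12 Hox genes fell in the ascending aorta of WT pools.

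**Figure D1:**
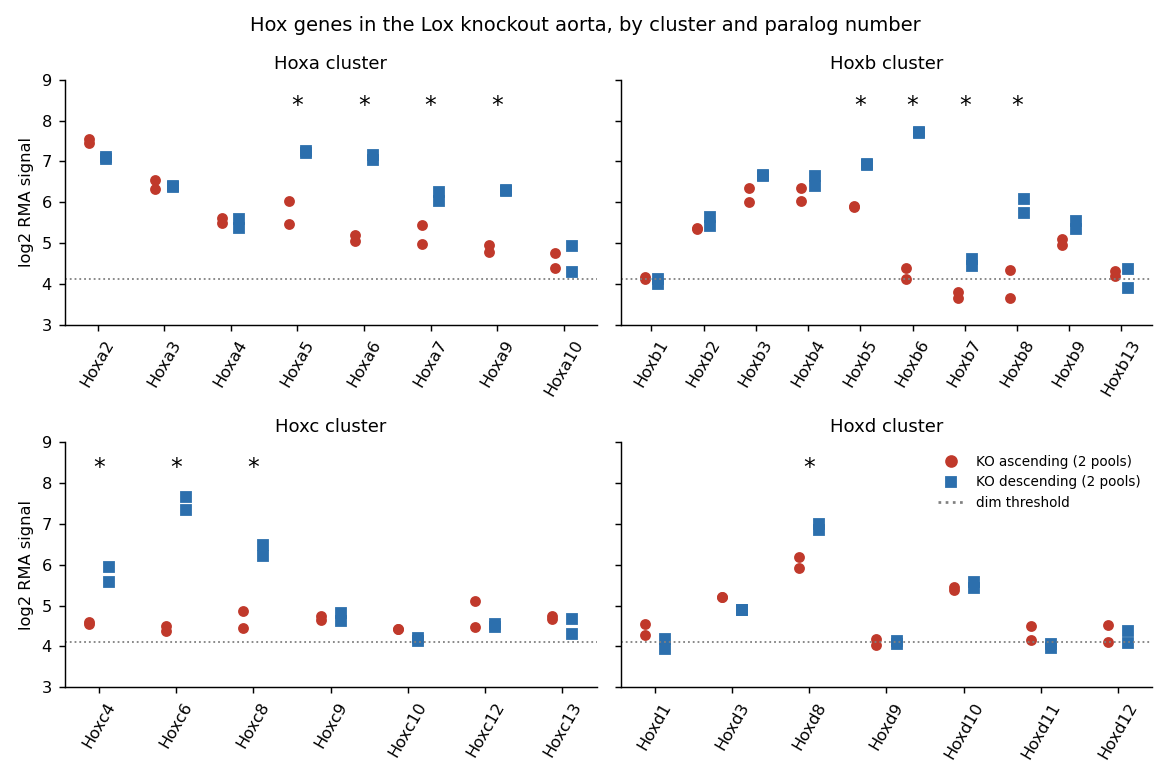
Log2 RMA signal of the 32 tested Hox genes (y axis) in KO ascending pools (circles, 2 per gene) and KO descending pools (squares, 2 per gene), by cluster and paralog number, with a star over called genes and the dim threshold of 4.11 as a dotted line. The 12 called genes lie in paralog groups 4 to 9, and the squares of Hoxb6 and Hoxc6 stand over 2 log2 units above the circles.

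Of 24 paraxial and lateral mesoderm factors tested, 2 rose and none fell. Tcf21, a basic helix-loop-helix factor of epicardium and fibroblast progenitors, had signals of 7.75 and 7.90 in the KO ascending pools and 5.04 and 5.22 in the descending pools. It was 6.47-fold higher in the ascending aorta, by 2.69 (SE 0.11, adjusted p = 5.94e-05), the smallest adjusted p of the comparison. Osr2, an odd-skipped zinc finger factor, had 6.92 and 6.45 against 5.19 and 4.56 and was higher by 1.81 (SE 0.23, adjusted p = 0.0101). The median of the list was 0.07.

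Among 28 factors of the outflow tract and second heart field, 1 rose, 1 fell and 26 did not pass. Fgf10, a growth factor made by second heart field cells, had 5.53 and 5.51 against 4.79 and 5.02 and was 1.53-fold higher (adjusted p = 0.035). The call of Fgf10 held in 5 of the 19 alternatives that tested it. Eya1, a transcriptional coactivator of the pharyngeal region, was lower (difference -0.82, 5.86 and 6.07 against 6.60 and 6.97, adjusted p = 0.0334). Tbx20 and Hand2, cardiac transcription factors, differed by 0.99 and 0.90 and missed the threshold (adjusted p = 0.0627 and 0.0522; both were singled out after their values were seen). The 2 members of highest level, Gata6 and Mef2c, differed by 0.24 and -0.03. Of the 26 neural crest and pharyngeal arch factors only Prrx1, a homeobox factor of mesenchyme, was called, at 8.52 and 8.64 against 9.33 and 9.18, a difference of -0.67 (adjusted p = 0.0217). So most named patterning factors outside the Hox clusters did not pass, and those that did went both ways.

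Pleiotrophin, a heparin-binding growth factor, was among the strongest signals of the ascending aorta. Ptn had 10.62 and 10.64 in the KO ascending pools and 8.51 and 8.31 in the descending pools, 4.66-fold higher (difference 2.22, SE 0.11, adjusted p = 9.01e-05). The gap between segments was more than 10 times that between the pools of a segment.

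**Figure D2:**
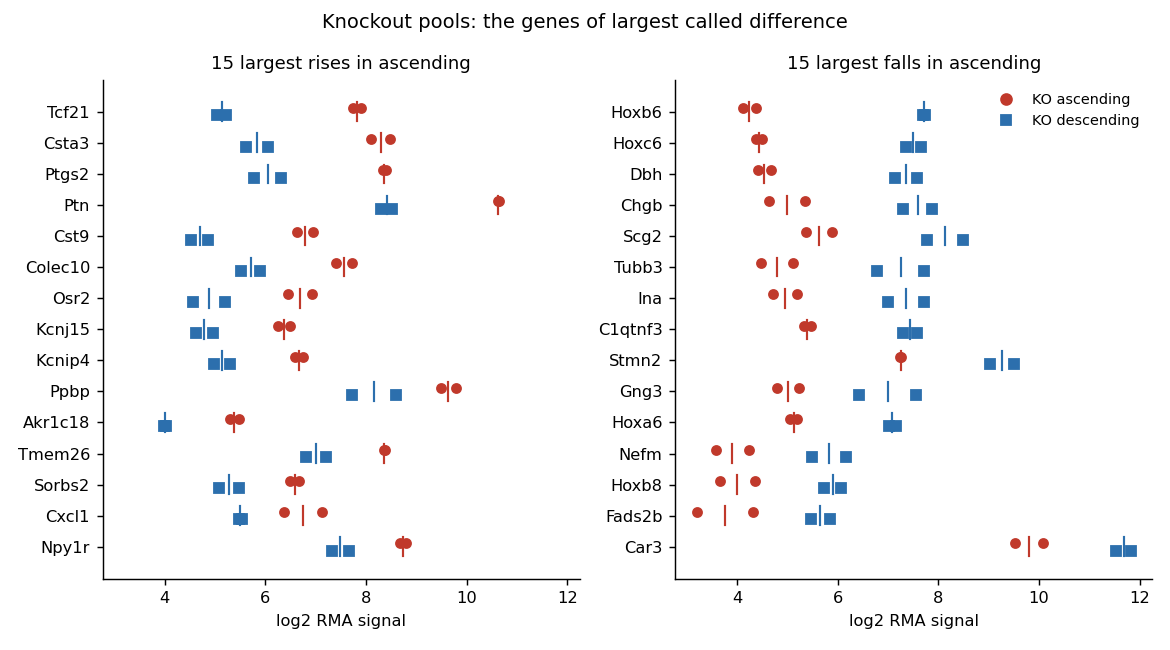
Log2 RMA signal (x axis) of the 15 genes with the largest called rise and the 15 with the largest called fall in KO ascending aorta, with circles for the 2 ascending pools, squares for the 2 descending pools and short lines at group means. Tcf21 and Ptn show tight pairs far apart, while Chgb, Gng3 and Fads2b show wider gaps between the pools of a segment.

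Genes of signalling pathways were called one at a time. Chrdl1, a secreted antagonist of bone morphogenetic proteins, had 6.98 and 7.36 in the ascending pools against 8.99 and 8.98 in the descending pools, 3.52-fold lower (difference -1.81, SE 0.14, adjusted p = 0.00151). Sost, sclerostin, a secreted antagonist of Wnt signalling, was higher by 0.98 (7.48 and 7.88 against 6.83 and 6.57, adjusted p = 0.0341), and Inhba, the subunit of activin A, by 0.79 (6.72 and 6.57 against 6.07 and 5.65, adjusted p = 0.0402). They were the only calls among 49 genes of TGF-beta and BMP signalling, whose median was 0.01. Chrdl1 stayed called without any 1 of the KO arrays, while no gene of the list was called higher without KO ascending replicate 1, KO ascending replicate 2 or KO descending replicate 2.

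Hhip, a membrane decoy that binds hedgehog ligands, had 6.64 and 6.65 against 8.07 and 8.13 and was 2.75-fold lower in the ascending aorta (difference -1.46, SE 0.13, adjusted p = 0.00273). Fgf7, a fibroblast growth factor that acts on epithelium, was lower too, at 6.67 and 6.78 against 7.61 and 7.56 (difference -0.86, adjusted p = 0.0113). Igfbp1, a binding protein of insulin-like growth factors, was 2.02-fold lower (5.89 and 5.70 against 6.73 and 6.88, adjusted p = 0.0139). Together with Fgf10, 4 of the 44 genes of FGF, PDGF, IGF and hedgehog signalling were called, 3 lower and 1 higher, and without 1 KO array 1 to 2 were called lower and none higher. Of 47 Wnt genes, 2 rose: Lgr6, a receptor of R-spondins, by 0.57 (adjusted p = 0.0349), and Frzb, a secreted Wnt antagonist, by 0.81 (adjusted p = 0.0491). Without any 1 of the KO arrays no Wnt gene was called. No gene of retinoic acid signalling passed, of 17 tested.

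Guidance and adhesion genes were called in both directions, 5 higher and 5 lower of 55. Slit2, the repellent ligand of Robo receptors, had 7.97 and 8.10 in the ascending pools against 9.06 and 9.09, 2.06-fold lower (difference -1.04, SE 0.10, adjusted p = 0.00342). Plxnd1, a semaphorin receptor of endothelium, was lower as well, at 7.69 and 7.66 against 8.55 and 8.58 (difference -0.89, adjusted p = 0.0054). Flrt3, a transmembrane adhesion protein, was higher by 1.18 (6.71 and 7.28 against 5.81 and 5.82, adjusted p = 0.0218). Cdh6, a cadherin, was higher by 1.12 (adjusted p = 0.0125), and Efna5, an ephrin ligand, by 0.80 (adjusted p = 0.0105). The remaining higher gene of the 5 beside Ptn was Epha7, an ephrin receptor, at 0.68, and the remaining lower ones were Sema3a at -0.62, Cdh8 at -0.63 and Ncam2 at -1.45, all 4 named outside the rule. Without 1 KO array, 1 to 3 of the list were called higher and 2 lower.

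Matrix genes were called singly and in both directions. Efemp1, fibulin 3, an elastic fibre protein, had 9.12 and 9.25 in the ascending pools against 7.98 and 7.91, 2.36-fold higher (difference 1.24, SE 0.14, adjusted p = 0.00647). It was the only called member of 21 elastic fibre genes, whose median was 0.00. Elastin itself, Eln, lay between 12.25 and 12.43 on the 4 KO arrays. Fbln5, fibulin 5, which binds elastin and Lox family enzymes, differed by 0.08 (adjusted p = 0.84).

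Of 39 collagen genes, 2 fell and 37 did not pass. Col11a1, a fibrillar collagen chain, had 7.44 and 7.57 against 8.43 and 8.30 (difference -0.86, adjusted p = 0.0113), and Col12a1, a fibril-associated chain, 9.58 and 9.87 against 10.53 and 10.31 (difference -0.70, adjusted p = 0.044). The abundant Col3a1, type III collagen, differed by -0.10 (adjusted p = 0.807). Both calls were lost without KO ascending replicate 1 and without either KO descending replicate. Aggrecan, Acan, a large proteoglycan of cartilage and of the vessel wall, was higher by 0.64 (10.70 and 10.74 against 10.02 and 10.15, adjusted p = 0.0452), while the small leucine-rich proteoglycans Fmod and Prelp were lower, at -0.89 and -0.62 (adjusted p = 0.0224 and 0.0466). The calls of Acan, Fmod and Prelp held in 7, 14 and 4 of 20 alternatives. The cartilage and valve list held the same 3 called genes of 18, so these calls count under both lists.

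Other called matrix genes went both ways. Sparcl1, a matricellular protein, was lower at 9.48 and 9.92 against 10.82 and 10.87 (difference -1.15, adjusted p = 0.0107). Timp4, an inhibitor of metalloproteases, was higher by 0.71 (adjusted p = 0.0334), and the ADAMTS family genes Adamtsl3 and Adamts12 differed by -0.89 and -0.52 (adjusted p = 0.0414 and 0.0491). The calls of Timp4, Adamtsl3 and Adamts12 held in 11, 8 and 4 of 20 alternatives. Itga11, the collagen-binding integrin subunit alpha 11, was 2.06-fold lower (6.90 and 7.14 against 8.15 and 7.97, adjusted p = 0.0101). Itgb8, an integrin subunit that acts on latent TGF-beta, was 1.77-fold higher (adjusted p = 0.0368). C7, a complement component listed among adventitial markers, was lower (difference -1.16, 4.27 and 4.48 against 5.41 and 5.67, adjusted p = 0.00609). Of the 17 tested genes of that fibroblast and adventitia list, C7 was the 1 called lower and Tcf21, at 2.69, the 1 called higher, with a median of -0.09.

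Of 37 contractile genes of smooth muscle tested, 1 was called, Smtnl2, a smoothelin-like protein, higher by 0.69 (7.66 and 7.67 against 6.91 and 7.02, adjusted p = 0.0442). The list's median was 0.03, and its summed linear signal was 43331 and 46785 in the ascending pools and 45796 and 42626 in the descending pools. The summed signals of the segments overlapped.

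Ion channel genes gave 3 rises and 1 fall among 45. Kcnj15, an inward rectifier potassium channel, had 6.49 and 6.26 against 4.63 and 4.95, 2.99-fold higher (difference 1.58, SE 0.14, adjusted p = 0.00273). Kcnip4, which modulates voltage-gated potassium channels, was 2.88-fold higher (6.75 and 6.59 against 4.99 and 5.30, adjusted p = 0.00948), though it stood in no list. Kcnab1, a potassium channel beta subunit, was higher by 0.71 (adjusted p = 0.0178), and Clca3a1, a chloride channel regulator, by 0.81 (adjusted p = 0.0231). Piezo2, a mechanically gated channel, was lower, at 6.63 and 6.63 against 7.38 and 7.34 (difference -0.73, adjusted p = 0.0205). Without 1 KO array, 1 rise was called in this list (2 without KO ascending replicate 1) and no fall.

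Of 37 vasoactive receptors and peptides tested, 2 rose and 1 fell, with a median of -0.02. Npy1r, the Y1 receptor for neuropeptide Y, had 8.67 and 8.80 in the ascending pools against 7.66 and 7.32, 2.37-fold higher (adjusted p = 0.0186). Agtr2, the type 2 angiotensin receptor, was lower, at 8.95 and 9.001 against 9.62 and 9.63 (difference -0.65, adjusted p = 0.0209). With Ptgs2, described below, they were the 3 calls of this list, of which 1 rise was left without KO ascending replicate 1, KO ascending replicate 2 or KO descending replicate 2.

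Several large differences concerned genes with roles outside these lists. C1qtnf3, a secreted protein of the C1q and TNF family, had 5.33 and 5.47 in the ascending pools against 7.58 and 7.30, 4.11-fold lower (adjusted p = 0.000667). Colec10, a collectin, had 7.72 and 7.41 against 5.89 and 5.53, 3.62-fold higher (adjusted p = 0.00349). Cst9, a cystatin-family gene, was 4.27-fold higher at 6.94 and 6.64 against 4.87 and 4.52 (adjusted p = 0.0115). Akr1c18, an enzyme that inactivates progesterone, was higher by 1.38, Tmem26 by 1.35 and Sorbs2, an actin-linked adaptor, by 1.31 (adjusted p = 0.0218, 0.0107 and 0.0204). Fads2b, a fatty acid desaturase gene, fell by 1.89 (adjusted p = 0.0326), with its ascending pools at 3.20 and 4.32, near the dim threshold.

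A microRNA precursor was also higher in the ascending aorta and is shown here since its mature arms have known sequences. The probe set of Mir31, singled out after its values were seen, had 5.34 and 5.14 in the ascending pools against 3.67 and 3.87 in the descending pools, 2.77-fold higher (difference 1.47, SE 0.14, adjusted p = 0.00342). The descending values lay below the dim threshold of 4.11. A gene array does not measure the mature arms, which RefSeq (GRCm38.p6) places on the minus strand at chr4:88910614-88910635 and chr4:88910577-88910599. Capitals mark the seed, the bases that pair with target messages.
mmu-miR-31-5p: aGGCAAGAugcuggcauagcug
mmu-miR-31-3p: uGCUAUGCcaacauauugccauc

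Of 26 genes of sympathetic neurons tested, 10 fell in the ascending aorta and none rose, and 25 had a difference below 0, with a median of -0.99 against -0.0016 over all genes. Dbh, the enzyme that makes noradrenaline from dopamine, had 4.67 and 4.42 in the KO ascending pools against 7.13 and 7.57 in the descending pools, 6.99-fold lower (difference -2.80, SE 0.33, adjusted p = 0.00779). Ddc, the decarboxylase that makes dopamine, had 4.99 and 5.01 against 5.93 and 6.02 (difference -0.97, SE 0.10, adjusted p = 0.00428). Th, the first enzyme of this pathway, named outside the rule, differed by -0.75 and did not pass (adjusted p = 0.0966).

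Further called members were proteins of axons and synapses. Stmn2, a tubulin-binding protein of growing axons, had 7.26 and 7.24 against 9.03 and 9.51 (difference -2.02, SE 0.19, adjusted p = 0.00342). Snap25 and Syt1, which fuse vesicles with the membrane, differed by -1.67 and -1.72 (adjusted p = 0.0224 and 0.019), and Nefm, a neurofilament subunit, by -1.92 (adjusted p = 0.0267). Tubb3, the neuronal beta tubulin, Ina, a neuronal intermediate filament, and Gng3, a neuronal G protein subunit, stood in no list and were 5.5-fold, 5.3-fold and 3.94-fold lower. The ascending pools of Nefm, at 4.23 and 3.58, lay near or below the dim threshold. Npy, neuropeptide Y, had 6.63 and 7.06 against 8.28 and 8.98, a difference of -1.78 that did not pass (adjusted p = 0.0648), and Uchl1, a deubiquitinase abundant in neurons, differed by -0.19. The other called members, named outside the rule, were Slc18a2 at -1.01, Gap43 at -1.07 and Prph at -1.22. Hand2 was the 1 member with a difference above 0.

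Chgb, of the sympathetic list, and Scg2, which stood in no list, encode secretory granule proteins. They are shown by a stretch of their promoters, since they were among the largest falls and share a motif. Chgb, chromogranin B, had 4.63 and 5.34 against 7.30 and 7.87, 6.06-fold lower (difference -2.60, adjusted p = 0.0161), and Scg2, secretogranin II, 5.37 and 5.88 against 8.50 and 7.77, 5.69-fold lower (difference -2.51, adjusted p = 0.00342). Sst, the peptide hormone somatostatin, named outside the rule, had 4.72 and 4.92 against 6.24 and 6.33 (difference -1.47, adjusted p = 0.0125). Capitals mark TGACGTCA, the cyclic AMP response element, which reads the same on both strands. The stretches lie at chr2:132781548-132781599 on the plus strand for Chgb, at chr1:79440065-79440116 on the minus strand for Scg2 and at chr16:23890863-23890914 on the minus strand for Sst (RefSeq, GRCm38.p6), with the motif's centre 68, 64 and 44 bases before the start of the gene.
Chgb: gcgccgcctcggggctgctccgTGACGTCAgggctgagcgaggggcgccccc
Scg2: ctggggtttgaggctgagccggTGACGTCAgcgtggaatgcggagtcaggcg
Sst: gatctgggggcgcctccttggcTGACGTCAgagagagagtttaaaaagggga

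The same letters stood in the promoter windows of 549 of 27025 genes (2.03%), and of 400 of the 12890 tested genes with a window (3.1%). Of the 108 genes lower in the ascending aorta with a window, 6 held the motif (5.56%): Chgb, Scg2, Sst, Slc18a2, Hhip and Mapk10, of which Sst, Slc18a2 and Mapk10 stand outside the naming rule. Of the 76 higher genes with a window, 0 held it. In Hhip and Mapk10 the motif's centre lay 71 and 25 bases before the start, and in Slc18a2 the match did not lie wholly before it. A match describes these letters and no binding.

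The sympathetic signal came unevenly from the 2 descending pools. Summed over the 26 genes, linear signal was 1879 and 1947 in the KO ascending pools and 3424 and 4531 in the KO descending pools, so the segments did not overlap. With 1 KO array left out, the median of the list lay between -1.16 and -0.88. Fewer falls were called with any KO array left out, fewest without KO descending replicate 2, where a rise was also called. With the arrays shifted to 1 median, 12 members fell and 1 rose. In the WT pools the sums were 1794 and 1775 against 3034 and 4286. Schwann cell markers, of the glia that wrap such axons, gave 2 falls among 15, Fabp7 at -1.05 (adjusted p = 0.0218) and S100b at -0.89 (adjusted p = 0.0373). These calls held in 13 and 9 of 20 alternatives. The median of the Schwann list was -0.08, with 6 of 15 members above 0, and lay between -0.15 and 0.14 with 1 KO array left out. How much of the difference in other genes moved with these nerve markers was not tested.

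Of 28 endothelial genes tested, 5 fell, none rose and 23 did not pass, with a median of -0.37 and 27 of 28 below 0. Vwf, von Willebrand factor, had 8.42 and 8.28 in the ascending pools against 9.37 and 9.27 (difference -0.97, SE 0.11, adjusted p = 0.00647). Kdr, the VEGF receptor 2, had 6.46 and 6.67 against 7.46 and 7.41 (difference -0.87, adjusted p = 0.00892), and Plvap, a protein of endothelial pores, 6.48 and 6.44 against 7.49 and 7.30 (difference -0.94, adjusted p = 0.0131). Ptprb and Mmrn2, a phosphatase and a matrix protein of endothelium, differed by -0.74 and -0.65 (adjusted p = 0.0241 and 0.0334). Pecam1, present on all endothelium, had 10.11 and 10.04 against 10.31 and 10.33, a difference of -0.24 that did not pass (adjusted p = 0.401). Pecam1 thus differed less than the 5 called members. Summed linear signal was 8022 and 8220 in the ascending pools against 10910 and 10293. With 1 KO array left out, the median of the list lay between -0.43 and -0.34. The count of falls was 1, 3, 2 and 1 without KO ascending replicates 1 and 2 and KO descending replicates 1 and 2, in that order.

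Of 20 fat genes tested, 4 fell and none rose, with a median of -0.48. Adipoq, the fat hormone adiponectin, had 6.41 and 6.47 in the ascending pools against 7.80 and 8.27, 3.02-fold lower (difference -1.59, SE 0.21, adjusted p = 0.0107). Car3, a carbonic anhydrase abundant in fat, had 9.53 and 10.08 against 11.53 and 11.82 (difference -1.88, adjusted p = 0.00647). Pparg and Cebpa, the transcription factors of fat cell differentiation, differed by -1.27 and -1.10 (adjusted p = 0.0341 and 0.0186). Fabp4 and Lpl, the members of highest level that did not pass, differed by -0.43 and -0.46 (adjusted p = 0.201 and 0.256). Scd1, a fatty acid desaturase counted with lipid synthesis, was lower (difference -1.07, 7.52 and 7.80 against 8.55 and 8.92, adjusted p = 0.0251). The summed signal of the fat list was 5138 and 6304 against 9227 and 10709, without overlap. With 1 KO array left out, the median of the list lay between -0.67 and -0.37. The count of falls was 1, 3, 3 and 0 without KO ascending replicates 1 and 2 and KO descending replicates 1 and 2, in that order. Whether Scd1 moved with the amount of fat in the pools was not tested.

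**Figure D3:**
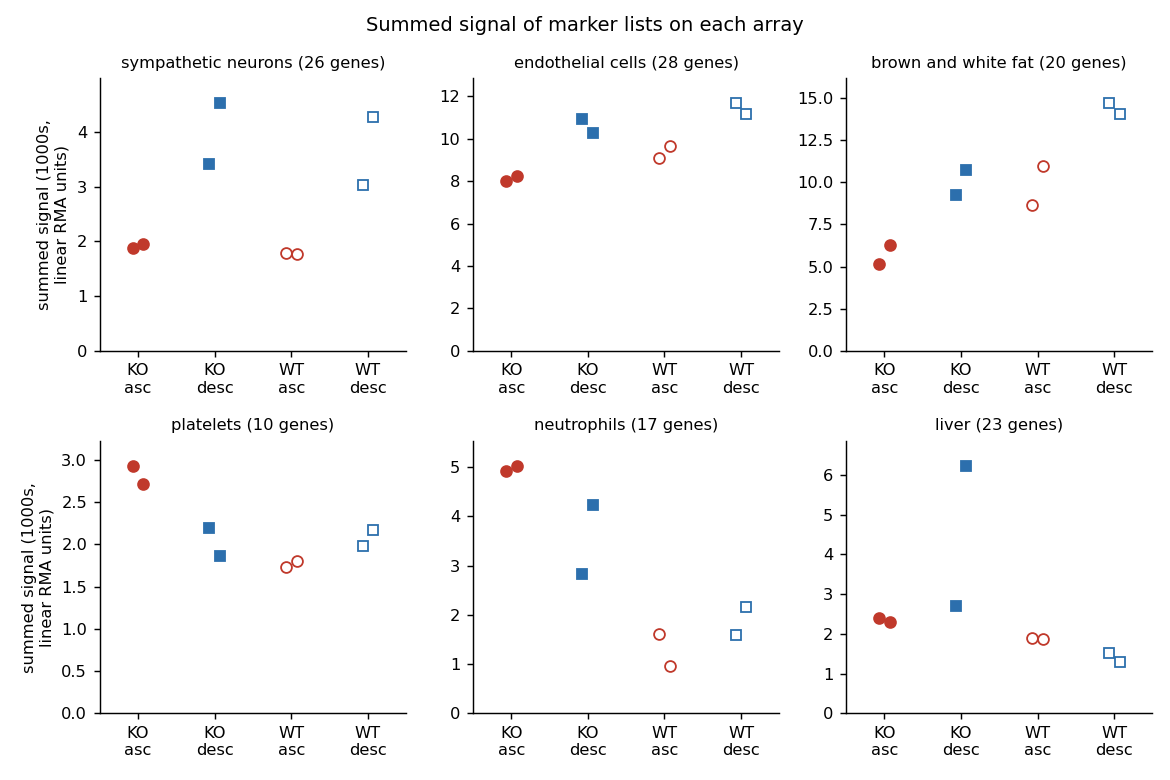
Summed linear RMA signal of 6 marker lists (y axis, from 0) on each array of KO ascending, KO descending, WT ascending and WT descending aorta, with 2 points per group, filled for KO and open for WT. Sympathetic, endothelial and fat sums were lower in ascending pools of both genotypes, the platelet sum was highest in KO ascending pools, and 1 KO descending pool stood apart in liver genes.

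Ptgs2, the inducible cyclooxygenase that makes prostaglandin precursors, was among the genes of largest rise in the ascending KO aorta. Its signal was 8.39 and 8.33 in the ascending pools against 6.32 and 5.78 in the descending pools, 4.97-fold higher (difference 2.31, SE 0.18, adjusted p = 0.00159). Csta3, a stefin A gene that inhibits cysteine proteases, had 8.11 and 8.48 against 5.61 and 6.06, 5.5-fold higher (difference 2.46, SE 0.34, adjusted p = 0.0133), and is close in sequence to other stefin A genes, whose signals were not separated. Both genes were high in both ascending pools.

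Chemokine and cytokine genes gave 1 rise and 3 falls among 25. Cxcl1, a neutrophil chemoattractant, had 7.14 and 6.37 against 5.53 and 5.47 (difference 1.25, SE 0.23, adjusted p = 0.0406). Ccl11, an eosinophil chemoattractant, had 7.64 and 7.82 against 8.98 and 8.74 (difference -1.13, adjusted p = 0.0113), Cxcl13, a B cell chemoattractant, 9.24 and 9.19 against 10.28 and 10.12 (difference -0.98, adjusted p = 0.00488), and Il33, an alarmin of stromal cells, 6.85 and 7.41 against 8.33 and 8.15 (difference -1.11, adjusted p = 0.0217). Ccl2, a monocyte chemoattractant, had 9.56 and 10.03 against 9.11 and 7.80 and did not pass (adjusted p = 0.19). Ccr2, the receptor of Ccl2, was higher by 0.68 (6.42 and 6.38 against 5.71 and 5.73, adjusted p = 0.0209). Ccl2 varied more between its descending pools than the called genes did. Without 1 KO array, 0 to 2 of the list were called higher and 1 to 3 lower.

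Of 10 platelet genes tested, 5 rose in the ascending KO aorta and none fell, with a median of 0.71. Ppbp, a chemokine stored in platelet granules, had 9.80 and 9.48 in the ascending pools against 8.59 and 7.72, 2.8-fold higher (difference 1.49, SE 0.25, adjusted p = 0.0293). Gp9, a subunit of the platelet receptor for von Willebrand factor, had 8.73 and 8.31 against 7.29 and 7.26 (difference 1.24, SE 0.16, adjusted p = 0.0107), and Tubb1, the platelet beta tubulin, 6.06 and 5.97 against 4.95 and 4.64 (difference 1.22, adjusted p = 0.00893). Gp6 and Treml1, platelet surface receptors, were higher by 0.73 and 0.69 (adjusted p = 0.0207 and 0.0135). Pf4, the member of highest level, which macrophages also make, overlapped between the segments and differed by -0.17 (adjusted p = 0.686). Summed signal was 2927 and 2713 in the ascending pools against 2194 and 1861. With 1 KO array left out, the median of the list lay between 0.66 and 0.81. Without KO ascending replicate 1, or without KO descending replicate 2, no platelet gene was called, and without either of the other KO arrays 3 were.

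Among 17 neutrophil genes 1 rose, Cxcr2, the receptor of Cxcl1, at 6.74 and 7.40 against 5.60 and 6.09 (difference 1.22, adjusted p = 0.0496). Its call was lost with each of the 4 KO arrays left out in turn. The calgranulins S100a8 and S100a9 differed by 0.83 and 0.32 and did not pass (adjusted p = 0.376 and 0.834). The list's summed signal was 4926 and 5024 in the ascending pools against 2832 and 4225, and 955 to 2153 on the WT arrays. Blood left in the vessel was not measured, and its part in the platelet and neutrophil values was not tested.

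Liver genes set 1 array apart. Their summed signal was 2406 and 2295 in the ascending pools, 2691 in KO descending replicate 1 and 6224 in KO descending replicate 2. Of 23 tested, 1 fell, Serpina1d, an antitrypsin gene with near-identical paralogs, at 5.09 and 5.25 against 6.36 and 7.42 (difference -1.72, adjusted p = 0.0385). The list's median was -0.59. Without KO descending replicate 2 no liver gene was called and the median was -0.17, while without KO descending replicate 1, which leaves the liver-rich pool alone, 13 fell and the median was -1.004. Albumin, Alb, had 8.57 and 8.37 against 9.05 and 10.20 (adjusted p = 0.148).

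Several lists had a median away from 0 with no member called. Immediate early genes had a median of 0.35 with 27 of 28 above 0, and summed signals of 10465 and 10403 in the ascending pools against 7757 and 9137. Genes of DNA replication and mitosis had a median of -0.23 with 30 of 31 below 0. Cardiac muscle genes had a median of -0.45, with sums of 8263 and 11777 against 12975 and 9260 that overlapped, and skeletal muscle genes a median of -0.30, with sums of 1321 and 2143 against 4134 and 1849 that overlapped. The cardiac median was -0.10 without KO ascending replicate 1 and -0.13 without KO descending replicate 1, and the skeletal median was 0.00 without KO descending replicate 1, with 2 genes called higher. The members of these lists had no called difference between the KO segments, which does not show that they were alike.

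No member was called among 32 genes of oxidative phosphorylation (median -0.11), 26 of hypoxia and glycolysis, 17 of interferon response, 25 of macrophages, 21 of lymphocytes and thymus, 10 of erythroid cells, 17 of lung epithelium, 15 of oesophagus and stratified epithelium and 15 of mesothelium and epicardium. Of the 247 called genes, 89 stood in at least 1 list and 158 in none.

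**Figure D4:**
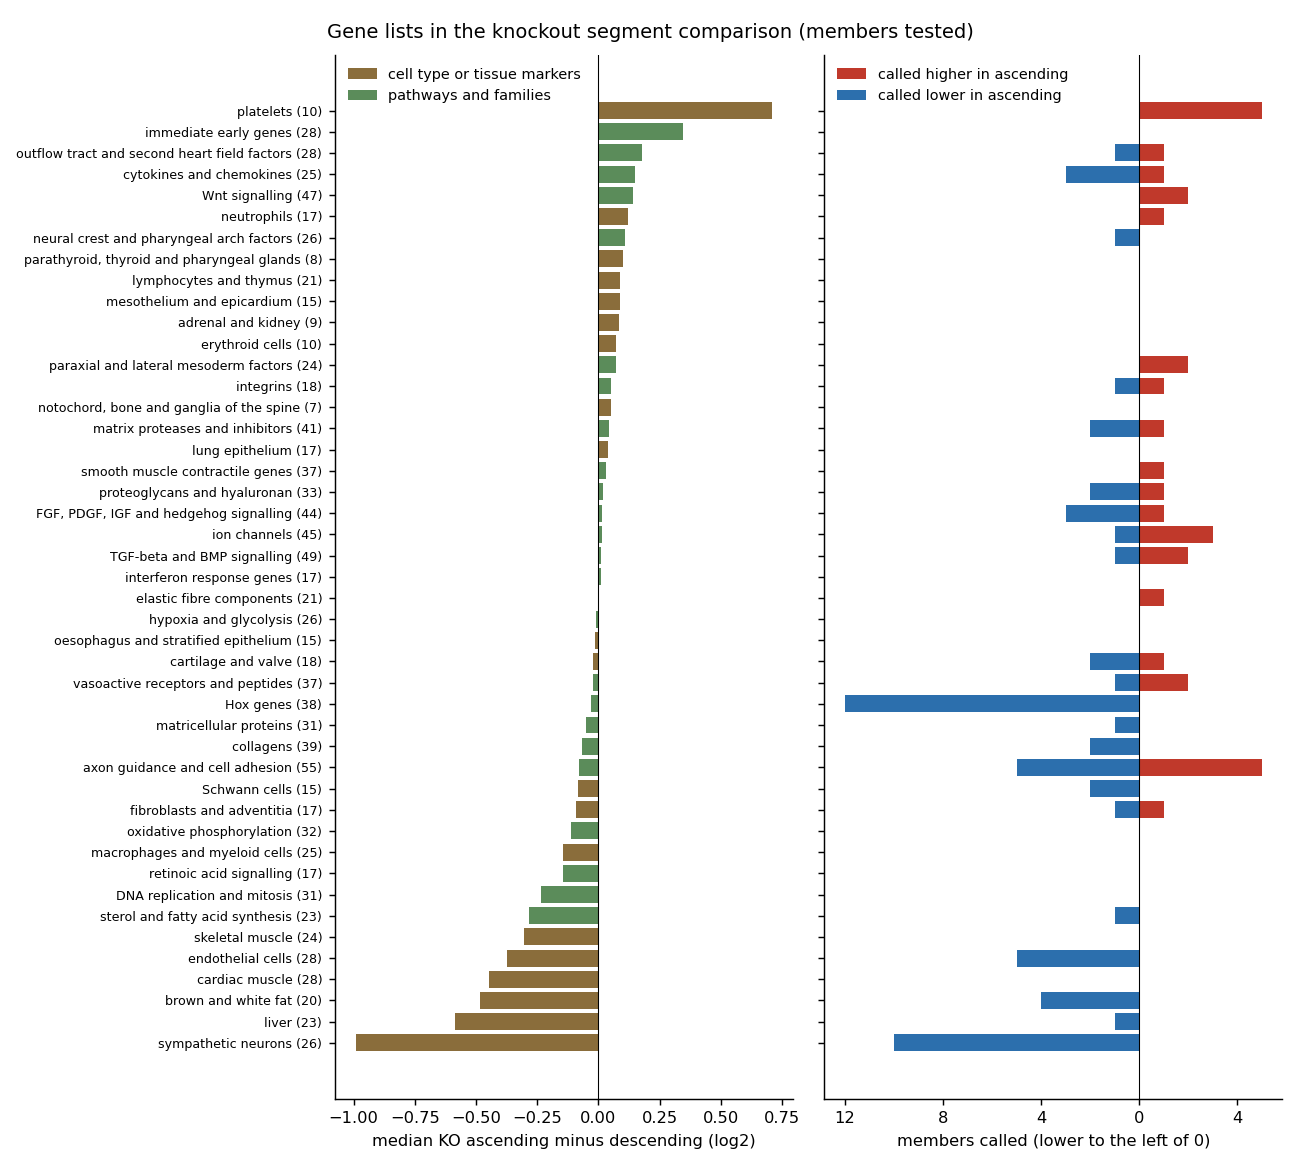
For each of the 45 gene lists (members tested in brackets), the median KO ascending minus descending difference in log2 units (left) and the number of members called higher (to the right of 0) and lower (to the left of 0) in ascending aorta (right). Sympathetic neurons had the lowest median, -0.99, and platelets the highest, 0.71, while the Hox list, with a median near 0, held the most falls, 12.

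The segment difference in KO was set beside that in WT, measured on the other 4 arrays and sharing only the estimate of spread. In WT 247 genes (1.48%) were also called, 85 (0.511%) higher and 162 (0.974%) lower in the ascending aorta, and the arrays of the segments did not overlap for 42.4% of genes. Of the KO calls, 138 were called in WT in the same direction, 55.9% of each list, 109 were not called in WT, and 0 were called in opposite directions. In sign, 234 of the 247 KO calls (94.7%) matched the WT difference, against 58.6% of all genes tested. The KO and WT differences had, over genes that are no independent replicates, a Pearson correlation of 0.518 and a Spearman correlation of 0.305. The median size of the difference of the KO calls was 0.92 in KO. Their median WT difference, counted as positive in the direction of the KO call, was 0.77. Their choice in KO favours KO in this comparison.

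The differences of several of these genes in the 2 genotypes stood as follows, with the same sign in both. Hoxb6 differed by -3.46 in KO and -2.89 in WT, Hoxc6 by -3.06 and -2.70, Chrdl1 by -1.81 and -1.86, and Hhip by -1.46 and -1.83. Osr2 differed by 1.81 in KO and 2.34 in WT, Tcf21 by 2.69 and 2.04, and Ptn by 2.22 and 1.46. Fgf10 differed by 0.62 in KO and 1.17 in WT, and Dbh by -2.80 and -2.79. The interaction, KO difference minus WT difference, was 0.76 for Ptn (SE 0.15, adjusted p = 0.647), 0.65 for Tcf21 (SE 0.16, adjusted p = 0.723), -0.55 for Fgf10 (SE 0.15, adjusted p = 0.775) and -0.57 for Hoxb6 (SE 0.28, adjusted p = 0.895). None of the 4 passed, which does not show that the genotypes were alike.

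Whether the segments differ by another amount in KO than in WT was tested by that interaction over all genes. It called 0 of 16638 genes in limma (0%), with 932 genes at an unadjusted p under 0.05, a smallest adjusted p of 0.439 and 1 call under a trended robust prior. The genes of smallest p were Ccr2, Csta3 and Ptgs2. Csta3 was 2.46 higher in ascending than in descending aorta in KO, while in WT its 4 arrays had 5.05 and 4.01 against 5.16 and 5.79 (interaction 3.40, SE 0.48, adjusted p = 0.439). Ptgs2 was 2.31 higher in KO and in WT had 5.24 and 5.59 against 4.87 and 4.93 (interaction 1.80, SE 0.26, adjusted p = 0.439). Ccr2 was 0.68 higher in KO and in WT had 5.42 and 5.22 against 5.76 and 5.74 (interaction 1.11, SE 0.15, adjusted p = 0.439). For these 3 genes the adjusted test did not show that the segment difference depends on the genotype.

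The 13 KO calls with the opposite sign in WT included Ppbp, Gp9 and Treml1 of the platelet list, Cxcr2, Ccr2, Csta3, Serpina1d, Gdf2 and Abi3bp. An opposite sign can be a WT difference near 0, as for Gp9, at -0.0065 with overlapping WT arrays. Abi3bp, an extracellular matrix protein, had 9.12 and 9.14 against 9.76 and 9.79 in KO, and 10.16 and 10.05 against 9.86 and 9.90 in WT (interaction -0.87, SE 0.14, adjusted p = 0.469). Gdf2, a bone morphogenetic protein of the circulation, had 5.40 and 5.44 against 4.72 and 4.76 in KO, and 4.93 and 4.95 against 5.06 and 5.04 in WT (interaction 0.79, SE 0.13, adjusted p = 0.579). The platelet sum, higher in ascending pools in KO, was 1726 and 1804 against 1976 and 2169 in WT. Sftpc, a surfactant protein of lung, lay between 4.56 and 5.07 on the KO arrays and at 8.37 and 10.15 in the WT descending pools. Summed over the 17 lung genes, linear signal was 1116 and 1644 in the WT ascending and 1866 and 2626 in the WT descending pools. It was 844 and 896 in the KO ascending and 935 and 889 in the KO descending pools. The part of lung signal in other WT differences was not tested.

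**Figure D5:**
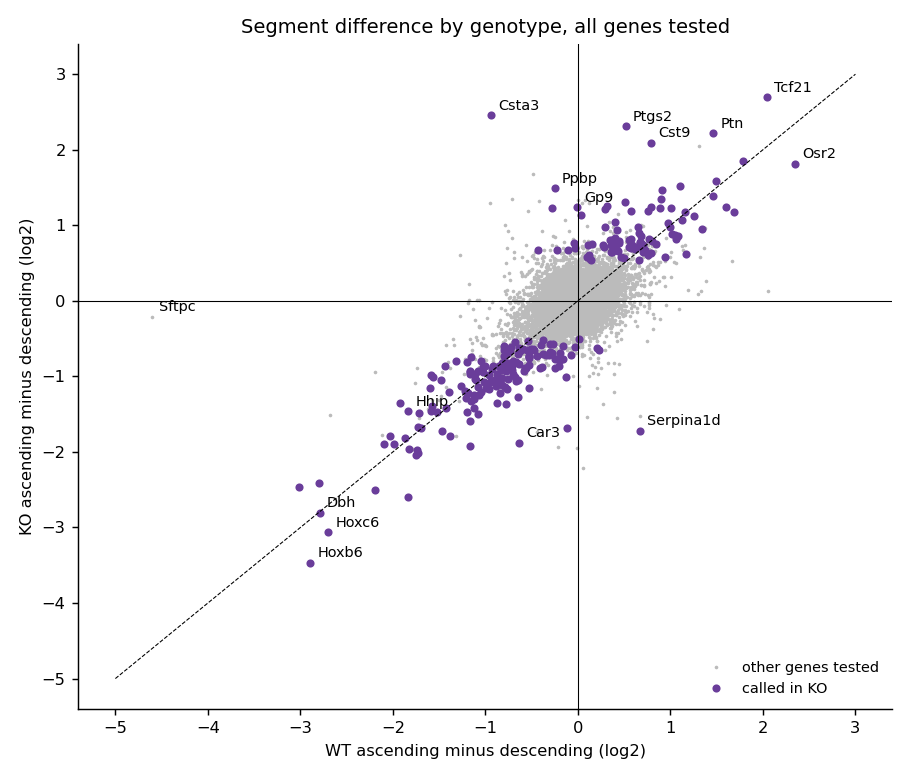
Ascending minus descending difference (log2) of each of the 16638 genes tested in WT (x axis) and KO (y axis), with genes called in KO as larger points and a dashed line where both differences are equal. Hoxb6, Hoxc6, Dbh and Hhip lie near the dashed line, and Csta3, Ptgs2 and Ppbp lie above it with WT differences of -0.94, 0.52 and -0.25.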

How the data were processed

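Gene arrays measured total RNA of 8 pools, in 4 groups of genotype and segment. Per the labels' protocols, NuGEN kits served for amplification and biotin labelling. The deposited values are log2 signals that the authors made with RMA in Affymetrix Expression Console, per the submitters' processing notes, with versions not given in the sources used here. RMA shares a distribution among arrays and compresses low values, so differences of dim genes are understated, and no detection calls were used here. Array medians lay between 5.11 and 5.19, and the 2 pools of each group correlated across genes at 0.98 to 0.988 (Pearson).

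Of 41345 probe sets, 23525 had 1 gene symbol in the platform table, 1810 several and 16010 none. The probe set of highest mean stood for each of 22184 genes, and those averaging under the 25th percentile (4.11) were dropped as dim, leaving 16638. All 8 arrays were fitted in limma 3.58.1 (R 4.3.3, eBayes, residual df 4, prior df 4.51) with 1 coefficient per group, and p-values were adjusted by Benjamini-Hochberg over all genes. The script was tested on simulated data. The members and the 45 gene lists (1165 of 1340 genes tested) were chosen with earlier results of these data known, so lists are described by counts and medians without a test.

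Genes were named by a rule: the 15 largest called rises and falls whose arrays did not overlap, up to 6 called and 2 abundant uncalled members of each list, all tested Hox list members, the 10 genes of smallest interaction p, and Lox, Loxl1, Loxl3 and Loxl4. Predicted genes, microRNAs, small nucleolar RNAs and olfactory receptors were passed over. Genes outside the rule are marked as such. Alternatives changed the dim filter, prior, normalization, weights, probe set choice, fold minimum and arrays used. Promoter windows and microRNAs came from RefSeq tables (GRCm38.p6). Plots used matplotlib 3.10.9 (python 3.11.15).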

Additional observations from a re-analysis of the deposited data

Results flagged for a closer look

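Probe sets with several gene symbols were outside the comparisons. When all 41345 probe sets were tested separately between KO ascending and KO descending aorta, 19 were called by limma, of which 14 had 1 symbol, 3 had none and 2 had several. These 2 were picked out as signal in data the comparisons do not use, and their genes are not named since each stands for several.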

How the results depend on the processing

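Gene counts are for KO, WT and the interaction in that order, 247, 247 and 0 as reported. With a trended robust prior they were 430, 444 and 1, with all probe sets tested separately 19 and 29, and with a test against 1.2-fold 74 and 72. A fit of only the 4 KO arrays called 114 genes between their segments. With each array left out in turn, the single array then left in its group taking the spread of the others, the KO count lay between 54 and 191, the WT count between 63 and 224 and the interaction count between 0 and 11. The 11 came without KO descending replicate 1, 2 came without WT descending replicate 1 and 1 without WT descending replicate 2. Other settings, namely no dim filter, a filter at the 50th percentile, cyclic loess, a shift to 1 median, array weights, the mean of probe sets and a 1.5-fold minimum, kept the KO and WT counts within 1.5 times and the interaction count at 0. The fit of only the WT arrays did so for its count of 167.

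With the replicate number as a block the KO, WT and interaction counts were 220, 234 and 0. Same-numbered pools of the KO segments had deviations with a correlation of -0.0565, and those of other group pairs between -0.0952 and 0.126, so the numbers were not taken as pairs.

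Over the named genes and settings, 3718 values kept direction and side of the threshold, 547 lost the call, 26 gained it and 0 called values reversed, while 51 uncalled values changed sign. Lists with each array left out, and after cyclic loess or a median shift, were added after seeing the data. The cause of these changes was not tested, beyond the loss of an array. Genes near the lower end of the array's range, many neuronal genes among them, have differences that background signal limits.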
